A study of Homo sapiens with 6 samples.

Results

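The hypoxia-inducible factor (HIF) subunits and the oxygen-sensing hydroxylases were examined as a set of 10 genes, taken by symbol from the 27754 genes of the count files: HIF1A, EPAS1 and HIF3A for the alpha subunits, ARNT and ARNT2 for the beta subunits, EGLN1, EGLN2 and EGLN3 for the prolyl hydroxylases, HIF1AN for the asparaginyl hydroxylase, and VHL. All 10 were present in the files, and 9 had enough counts to be tested. RNA was sequenced from T47D, a human breast cancer line of luminal character grown as an adherent culture in RPMI medium with fetal bovine serum. The 3 control libraries came from cells in normoxia (20% O2), and the 3 treated libraries from cells held for 48 h in a chamber that the labels set at 0.5% O2. The text of the study gives a higher oxygen level for the hypoxia of these libraries, and the level printed here is that of the labels. All cells were of 1 unmodified cell line, and no group carried a knockdown or a transgene.

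In cells with enough oxygen, EGLN enzymes hydroxylate prolines of the HIF alpha subunits. VHL, the substrate-binding part of a ubiquitin ligase, then binds them and they are degraded. HIF1AN hydroxylates an asparagine and thereby keeps the alpha subunit from the coactivators p300 and CBP. When oxygen is short these reactions slow, and the alpha subunit accumulates, pairs with ARNT and binds DNA at hypoxia response elements, among them elements in EGLN1 and EGLN3. Most of this control acts on protein, and only transcripts were measured here.

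The libraries held between 32989104 and 40943424 counts, except hypoxia replicate 3 with 89883409. The first principal component separated the conditions and held 84.1% of the variance, and on the second, with 10.4%, both libraries numbered 3 stood apart. In all, 59.5% of the 15657 genes tested passed 0.05 as the adjusted p of the quasi-likelihood test in edgeR, 30.4% higher and 29.1% lower in hypoxia (4765 and 4551 genes). With upper-quartile scaling the split was 5972 higher and 3285 lower, and the median change over all genes moved from 0.028 to 0.19 on the log2 scale. The 11 luminal markers had a summed level of 15610 to 19560 counts per 1000000 of the scaled library size (CPM) in normoxia. In hypoxia it was 11200 to 14270 CPM. These markers were unequal: KRT8 had the highest mean over all libraries, 4935 CPM, and TFF1 did not exceed 1.73 CPM in any library. Their directions differed too. PGR was at 909.9 to 1470 CPM in normoxia and at 131.2 to 185.7 CPM in hypoxia. EPCAM was at 196.5 to 211.6 CPM and then 201.8 to 211.6 CPM, and TFF1 was higher in each hypoxia library. Summed levels of 5 immune markers, of which CD68 was highest, were 2.04 to 2.499 CPM in normoxia and 8.58 to 10.7 CPM in hypoxia, and the part of this in the results was not tested. For the 5 endothelial markers the summed level reached 0.452 CPM in normoxia and 0.656 CPM in hypoxia, for the 5 basal markers 19.9 and 24.6 CPM, and for the 6 fibroblast markers 95.9 and 99.7 CPM, of which COL1A1 made up a mean of 86.5 CPM. In bulk RNA, fewer cells of a type and less of a transcript per cell cannot be told apart. The study describes its data as independent experiments, but the labels do not say which libraries came from separate cultures, and p-values measure the spread between these libraries.

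Of the 9 tested members, 4 were higher in hypoxia (EGLN3, ARNT2, EGLN1 and ARNT), 2 were lower (HIF1A and HIF1AN) and 3 did not pass the threshold (EPAS1, VHL and EGLN2). This count lies near the background of 59.5% given above. The libraries of the 2 conditions did not overlap for 6 of the 9, against 67.3% of all tested genes. The median log2-fold change was 0.035 for the members and 0.028 for all tested genes. The direction and size of the changes therefore differed from member to member, and each is described by its role below.

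**Figure D1:**
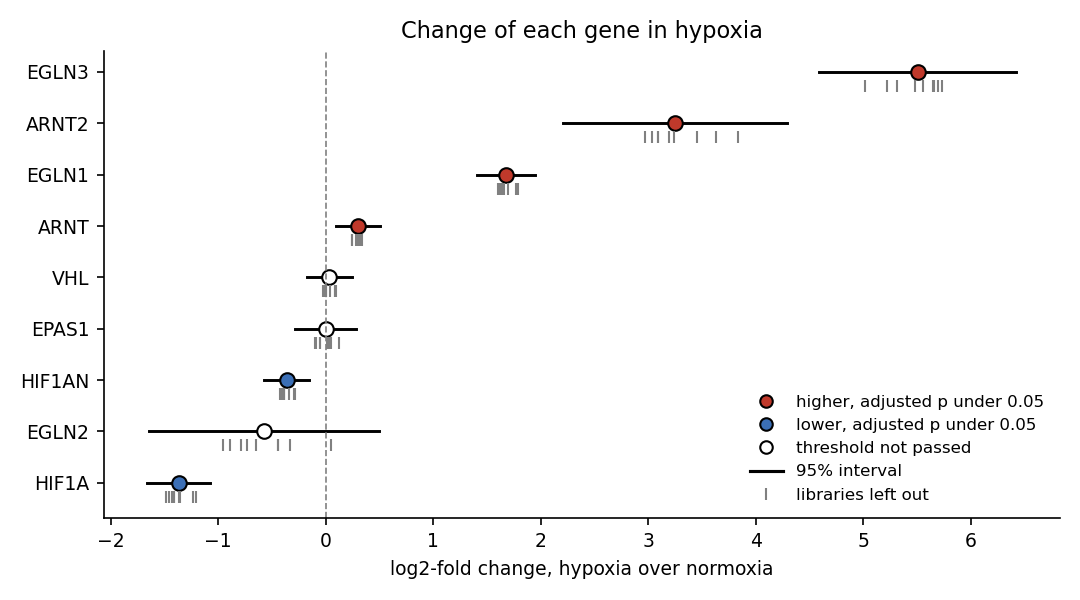
Log2-fold change of the 9 tested members, hypoxia over normoxia, as points with 95% confidence intervals from edgeR's quasi-likelihood test (3 libraries per condition), filled where the adjusted p was under 0.05, with ticks for the values with libraries left out. The values run from -1.37 for HIF1A to 5.51 for EGLN3, and the intervals of EPAS1, VHL and EGLN2 span 0.

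The promoter sequences of the members were searched for the core letters of the hypoxia response element, ACGTG or GCGTG, on both strands, where ACGTG overlaps its own reverse complement when a C stands before it. RefSeq windows on GRCh38.p14 from 250 bases before to 50 bases after a start site existed for 8 members, 12 windows in all. A core was found in 5 of the 12 (41.7%), against 48.4% of all 35116 windows, and ACGTG in 2 (16.7%), against 21.4%. Those of the 2 alpha subunits with abundant transcripts and of the 2 hydroxylases with the ACGTG form are shown because the comparisons within the families turn on these genes. Capitals mark the core, and each sequence is written 5′ to 3′ on the strand of the gene.
EGLN1: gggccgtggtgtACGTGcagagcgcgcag
EGLN2: cggggcgcggtcACGTGcccaccgggcga
EPAS1: gggcctgccggcGCGTGcccgcccacaca
HIF1A: tggctgagagcgGCGTGggctggggtggg
The EGLN1 stretch lies at chr1:231422284-231422312 on the minus strand, with the core starting 13 bases before the start site. On the plus strand, the EGLN2 stretch lies at chr19:40799131-40799159 with its core 48 bases before the start. The EPAS1 stretch at chr2:46297278-46297306 has its core 117 bases before the start, and the HIF1A stretch at chr14:61695297-61695325 has it 204 bases before. HIF3A held 3 cores, all GCGTG and in the same window, and the windows of EGLN3, ARNT and HIF1AN held none. A match in these letters is a description of the sequence only.

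HIF1A and EPAS1 encode the HIF-1 alpha and HIF-2 alpha proteins. HIF1A transcript fell in hypoxia, EPAS1 transcript did not differ between conditions beyond the spread of the libraries, and HIF3A was almost undetected. HIF1A (GRCh37 chr14:62162119-62214977, plus strand) stood at 137.8, 130.1 and 138.9 CPM in normoxia replicates 1 to 3 and at 56.7, 58.7 and 42.4 CPM in hypoxia replicates 1 to 3. Every hypoxia library lay below every normoxia library, and hypoxia replicate 3 was the lowest. The mean went from 135.6 ± 4.78 to 52.6 ± 8.88 CPM (SD, n = 3), or -1.37 on the log2 scale (SE 0.126, 95% interval -1.66 to -1.08), with a quasi-likelihood adjusted p of 0.000142 (edgeR). The fitted level in hypoxia was 0.387 of that in normoxia, and 1.81% of the tested genes had a fold change as low or lower.

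EPAS1 (chr2:46524541-46613842, plus strand) measured 131.4, 144.4 and 175.9 CPM in normoxia and 142.5, 141.5 and 167.3 CPM in hypoxia. The conditions overlapped throughout, and replicate 3 was the highest library in each. The means were 150.6 ± 22.9 and 150.4 ± 14.6 CPM (SD, n = 3), and the log2-fold change of -0.00079 (SE 0.123) had a 95% interval of -0.28 to 0.28 with a quasi-likelihood adjusted p of 0.996 (edgeR). Its sign turned with upper-quartile scaling, which gave 0.16.

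HIF3A (chr19:46800303-46846690, plus strand), whose product includes forms that restrain the other alpha subunits, was listed at 0 counts in all normoxia libraries and at 0, 1 and 5 counts in hypoxia replicates 1 to 3. Only the 5 counts of the deepest library lay above a floor of 3 counts, which corresponded to 0.0334 to 0.0909 CPM, and no test was made.

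The balance of the alpha subunits was compared on CPM per kilobase of counted exon. HIF1A made up 55.2, 51.4 and 48.1% of the summed alpha level in normoxia and 31.9, 32.8 and 23.0% in hypoxia. EPAS1 per kilobase stood at 0.811, 0.944 and 1.08 times HIF1A in normoxia and at 2.14, 2.05 and 3.35 times HIF1A in hypoxia. As counted, the 2 transcripts were thus close to each other in normoxia, and EPAS1 was the more abundant in each hypoxia library. Of the counted HIF1A bases, 30.4% lie opposite antisense genes, against 0% for EPAS1. Whether reads there were counted for HIF1A is not known. The level of HIF1A relative to other genes therefore holds only for the counts as given. The log2 ratio of HIF1A to EPAS1 went from 0.092 ± 0.205 to -1.29 ± 0.394 (SD, n = 3), and its difference of -1.39 gave a two-sided exact permutation p of 0.1, the smallest that 3 against 3 libraries allow.

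Antisense transcripts overlap the HIF1A gene, and 30.4% of its counted bases lie opposite 2 of them. HIF1A-AS2 (chr14:62213757-62215807, minus strand) shares 1221 of its 2051 counted bases with HIF1A exons on the other strand. It had 10, 24 and 11 counts in normoxia and 168, 148 and 273 counts in hypoxia. All hypoxia libraries lay above all normoxia libraries, opposite to HIF1A itself. The mean rose from 0.418 ± 0.203 to 3.73 ± 0.644 CPM (SD, n = 3), with a log2-fold change of 3.14 (SE 0.340) and a quasi-likelihood adjusted p of 0.000243 (edgeR). HIF1A-AS1, over the 5′ end, did not exceed 3 counts and was not tested. Whether the counting used the strand is not given in the sources used here, and without strand the reads of a gene and its antisense partner cannot be told apart.

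ARNT encodes the common partner of the alpha subunits, and ARNT2 a relative best known from neural tissue. Both transcripts were higher in hypoxia, ARNT by a small fold from a high level and ARNT2 by a large fold from a level near the limit of detection. ARNT (chr1:150782181-150849244, minus strand) measured 77.5, 79.5 and 69.5 CPM in normoxia and 92.4, 99.3 and 87.3 CPM in hypoxia. The lowest hypoxia library lay above the highest normoxia library. The means of 75.5 ± 5.27 and 93.0 ± 6.04 CPM (SD, n = 3) gave a log2-fold change of 0.30 (SE 0.087, 95% interval 0.10 to 0.50) and a quasi-likelihood adjusted p of 0.0178 (edgeR). The call depended on which libraries were used. The same test gave an adjusted p of 0.0552 without normoxia replicate 1, 0.0549 without normoxia replicate 3, 0.0572 without hypoxia replicate 1 and 0.0730 without hypoxia replicate 2, and of 0.141 and 0.0979 without both libraries of replicate 1 or of replicate 2. It passed without normoxia replicate 2 (0.0338), without hypoxia replicate 3 (0.0108) and without both libraries of replicate 3 (0.00101), and the log2-fold change was 0.24 to 0.34 over all of these.

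ARNT2 (chr15:80696692-80890277, plus strand) had 4, 8 and 2 counts in normoxia and 52, 60 and 82 counts in hypoxia. In CPM these were 0.101, 0.215 and 0.0646 against 1.29, 1.64 and 0.897. The conditions were far apart, but normoxia replicate 3 lay under the floor of 3 counts. The log2-fold change was 3.25 (SE 0.450, 95% interval 2.21 to 4.29) with a quasi-likelihood adjusted p of 0.000655 (edgeR). ARNT2 per kilobase reached only 0.194 ± 0.0567 CPM in hypoxia, where ARNT stood at 18.6 ± 1.21 CPM per kilobase (SD, n = 3).

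The summed alpha subunits outweighed the summed beta subunits in all libraries. The log2 ratio of alpha to beta, on CPM per kilobase, was 1.88, 1.86 and 2.24 in normoxia and 1.12, 1.02 and 1.26 in hypoxia. The ratio was lower in each hypoxia library, by 0.86 on the log2 scale between the means, with a two-sided exact permutation p of 0.1.

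**Figure D2:**
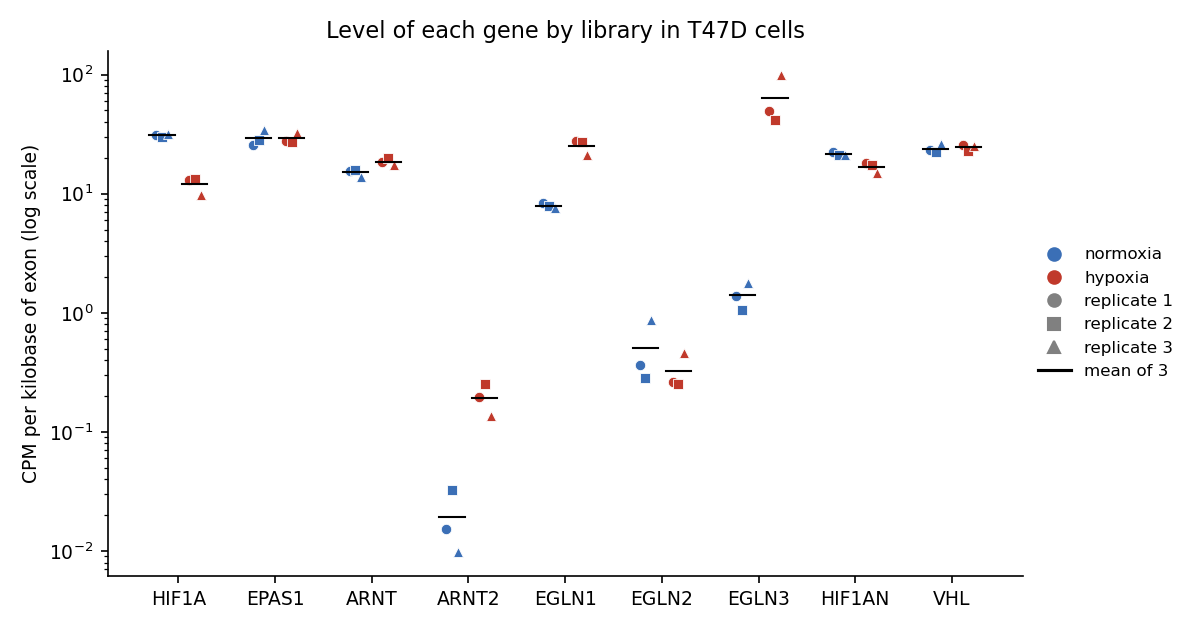
CPM per kilobase of counted exon on a log axis for 9 members in each of the 6 libraries, coloured by condition with a symbol per replicate number and a line at the mean of 3 (HIF3A, with 0 counts in normoxia, is not drawn). EGLN3 moves from a mean of 1.41 to 63.6 CPM per kilobase, whereas the points of EPAS1, VHL and EGLN2 overlap between conditions.

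The 3 prolyl hydroxylase genes differed. EGLN3 and EGLN1 rose in hypoxia, EGLN3 by far the more, and EGLN2 did not pass the threshold. EGLN3, which encodes PHD3, (chr14:34393421-34420284, minus strand) measured 3.78, 2.88 and 4.85 CPM in normoxia and 134.3, 113.5 and 271.7 CPM in hypoxia. The conditions were far apart, and hypoxia replicate 3 stood well above the other 2. The means were 3.83 ± 0.987 and 173.2 ± 86.0 CPM (SD, n = 3), and the fitted change was 45.5-fold, a log2-fold change of 5.51 (SE 0.398, 95% interval 4.59 to 6.43) with a quasi-likelihood adjusted p of 6.04e-05 (edgeR). Among the 15657 tested genes this was rank 51 by fold increase. Without hypoxia replicate 3 the log2-fold change was 5.02.

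EGLN1, which encodes PHD2, the main oxygen sensor for HIF-1 alpha in many cells, lies at chr1:231499497-231560790 on the minus strand. Its levels were 58.7, 56.0 and 54.1 CPM in normoxia and 198.0, 192.2 and 149.7 CPM in hypoxia. Unlike EGLN3, its lowest hypoxia value was that of replicate 3. The means of 56.2 ± 2.33 and 180.0 ± 26.4 CPM (SD, n = 3) gave a log2-fold change of 1.68 (SE 0.116, 95% interval 1.41 to 1.95), a 3.20-fold increase with a quasi-likelihood adjusted p of 5.11e-05 (edgeR). The promoter window of EGLN1 held the ACGTG core shown above, and that of EGLN3 held no core.

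EGLN2, which encodes PHD1, (chr19:41305048-41314346, plus strand) had 34, 25 and 64 counts in normoxia and 25, 22 and 100 counts in hypoxia. In CPM these were 0.861, 0.672 and 2.07 against 0.618, 0.601 and 1.09, with replicate 3 highest in both conditions. The conditions overlapped, and the log2-fold change of -0.57 (SE 0.463, 95% interval -1.64 to 0.50) had a quasi-likelihood adjusted p of 0.312 (edgeR). Without normoxia replicate 3 the value was 0.05.

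The count of EGLN2 cannot be read as its transcript level. Of its 2365 counted bases, 2035 (86.0%) are also assigned to RAB4B-EGLN2, a read-through gene on the same strand, which leaves 330 bases in its first 2 exons. RAB4B-EGLN2 (chr19:41284124-41314346) and its upstream partner RAB4B, all of whose bases are shared with other genes, had 0 counts in 5 libraries and 1 count each in hypoxia replicate 3. The same held across the files, where 397 of 445 genes (89.2%) whose bases are all shared with genes of their own strand had 0 counts in every library, against 19.7% of 21587 genes that overlap no other gene. For genes covered in full by the opposite strand only, the share was 61.4% of 101. Per kilobase of the unshared bases EGLN2 measured 2.61, 2.04 and 6.27 CPM in normoxia and 1.87, 1.82 and 3.32 CPM in hypoxia, a scale chosen after the counts had been seen, on which the conditions still overlapped.

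**Figure D3:**
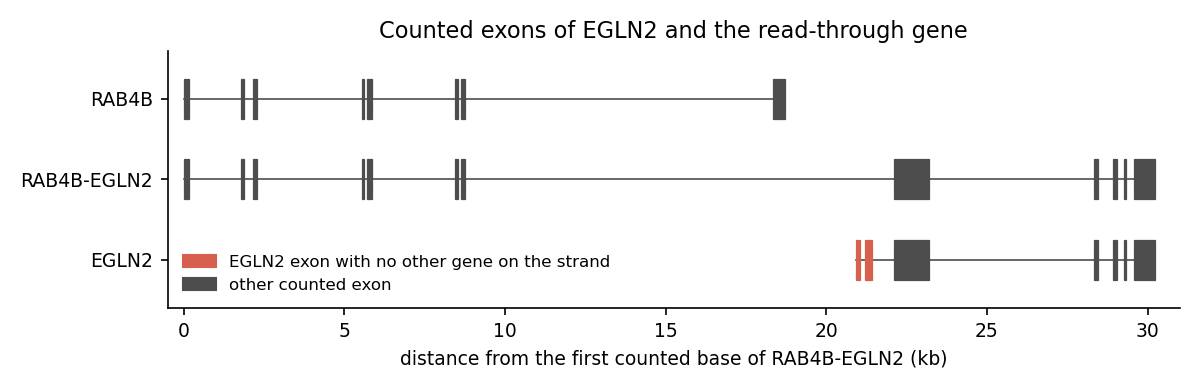
Counted exons of RAB4B, RAB4B-EGLN2 and EGLN2 drawn to scale as boxes, against distance in kilobases from the first counted base of RAB4B-EGLN2. The 330 bases of EGLN2 that no other gene shares on its strand are coloured, and the other 2035 bases coincide with the read-through gene.

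Between EGLN1 and EGLN3, the more abundant transcript per kilobase was EGLN1 in normoxia and EGLN3 in hypoxia. EGLN2 could not be placed, because its count is not its transcript level. This order rests on the division by counted length, 2722 bases for EGLN3 and 7097 for EGLN1. In counts, EGLN1 stayed above EGLN3 in hypoxia replicate 1 (8014 and 5438) and replicate 2 (7032 and 4152), but not in replicate 3 (13683 and 24835). EGLN1 made up 82.5, 85.5 and 74.2% of the summed EGLN level in normoxia and 36.0, 39.2 and 17.4% in hypoxia. EGLN3 made up 13.8, 11.5 and 17.3% in normoxia and 63.7, 60.4 and 82.2% in hypoxia. EGLN3 per kilobase was thus below EGLN1 in every normoxia library and above it in every hypoxia library, at 0.168, 0.134 and 0.234 times EGLN1 and then 1.77, 1.54 and 4.73 times. The share of EGLN3 differed by 54.6 percentage points between the means, 14.2 ± 2.96% and 68.8 ± 11.8% (SD, n = 3), with a two-sided exact permutation p of 0.1, the smallest possible. EGLN2 enters these shares with the length and count described above, so the shares hold only for the counts as given. As counted, the summed EGLN level was below that of HIF1A in all normoxia libraries, with log2 ratios of -1.65, -1.68 and -1.62. It was above HIF1A in all hypoxia libraries, with 2.59, 2.37 and 3.65. The sum includes EGLN2, whose transcript level is not known from these counts, and HIF1A enters the ratio with the antisense overlap described above.

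**Figure D4:**
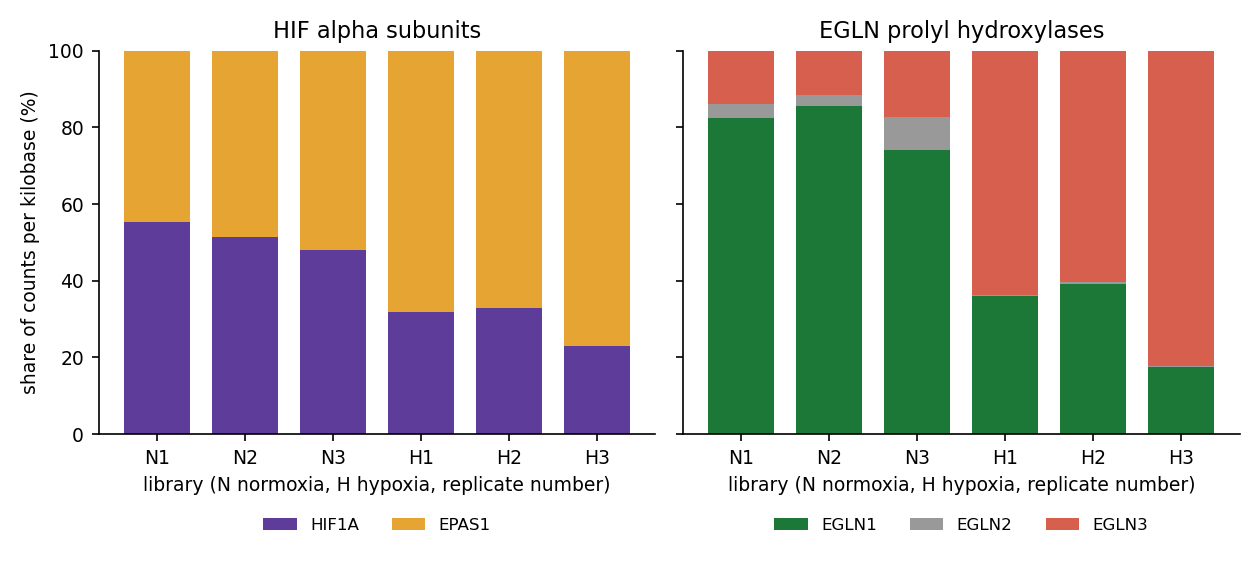
Share of each gene in the summed CPM per kilobase of its family in each library, for the alpha subunits and for the EGLN genes, as stacked bars in percent (HIF3A is too small to be seen and is not drawn). HIF1A goes from 48.1 to 55.2% of the alpha level in normoxia to 23.0 to 32.8% in hypoxia, and EGLN3 from 11.5 to 17.3% of the EGLN level to 60.4 to 82.2%. The EGLN2 count is not its transcript level, so the EGLN shares hold only for the counts as given. The alpha shares do too, because 30.4% of the counted HIF1A bases lie opposite antisense genes.

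HIF1AN, which encodes factor inhibiting HIF, was lower in hypoxia by a small fold, and VHL did not pass the threshold. HIF1AN (chr10:102295641-102313681, plus strand) measured 156.0, 146.0 and 146.2 CPM in normoxia and 125.8, 119.4 and 103.1 CPM in hypoxia. The conditions did not overlap. The means of 149.4 ± 5.74 and 116.1 ± 11.7 CPM (SD, n = 3) gave a log2-fold change of -0.36 (SE 0.0907, 95% interval -0.57 to -0.15) with a quasi-likelihood adjusted p of 0.00959 (edgeR). With upper-quartile scaling the value was -0.21 and the adjusted p 0.109.

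VHL (chr3:10183319-10195354, plus strand) measured 106.0, 101.9 and 119.0 CPM in normoxia and 116.1, 103.3 and 115.6 CPM in hypoxia. The hypoxia libraries lay inside the range of the normoxia libraries. The log2-fold change was 0.035 (SE 0.0888) with a 95% interval of -0.17 to 0.24 and a quasi-likelihood adjusted p of 0.750 (edgeR).

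The order of the members by CPM per kilobase differed between the conditions. In normoxia it ran from HIF1A at 30.9 ± 1.09 through EPAS1 at 29.2 ± 4.43, VHL at 23.9 ± 1.96 and HIF1AN at 21.6 ± 0.830 to ARNT at 15.1 ± 1.05 (SD, n = 3). Of these, HIF1A and EPAS1, EPAS1 and VHL, and VHL and HIF1AN overlapped as neighbours. EGLN1 at 7.92 ± 0.328, EGLN3 at 1.41 ± 0.362, EGLN2, ARNT2 and HIF3A followed, with no overlap between neighbours. The place of EGLN2 rests on its whole counted length: per kilobase of its unshared bases it lay above EGLN3 in every normoxia library. In hypoxia EGLN3 led at 63.6 ± 31.6 CPM per kilobase, above EPAS1 at 29.1 ± 2.83, EGLN1 at 25.4 ± 3.72 and VHL at 24.5 ± 1.58, which overlapped as neighbours. ARNT at 18.6 ± 1.21 and HIF1AN at 16.8 ± 1.70 overlapped each other, and HIF1A had moved from the first place to the seventh, at 11.97 ± 2.02. EGLN2, ARNT2 and HIF3A were again the lowest. The places of HIF1A hold only for the counts as given, because of the antisense overlap described above.

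The genes whose pattern was most like that of a member were sought among the 12664 genes averaging 100 counts or more per library, by Pearson's r of log2(CPM + 0.5) over the 6 libraries. The 6 libraries fall into 2 conditions and are shared by all genes, and the values describe likeness only. HIF1A was most like NUP133 (r = 0.9991), a nuclear pore gene, TOMM70 (0.999), a mitochondrial import receptor, and PSMC6 (0.9985), a proteasome subunit, and 2199 genes had an r over 0.9. EGLN3 was most like UPP1 (0.9999), ALDOA (0.9987) and IRF5 (0.9978), of which ALDOA encodes a glycolytic aldolase, and 1974 genes had an r over 0.9. For EPAS1, which differed little between conditions, 106 genes did, led by PCDH7 (0.9903), SLC31A2 (0.9874) and CRTC2 (0.9867). Pearson's r takes no account of the size of a change. The log2-fold changes of UPP1, ALDOA and IRF5 were 1.88, 1.5 and 0.989, against 5.51 for EGLN3. Those of NUP133, TOMM70 and PSMC6 were -0.478, -0.561 and -0.628, against -1.37 for HIF1A.

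The partners that build the ligase with VHL were lower although VHL itself did not pass the threshold. All 4, the scaffold CUL2, the RING subunit RBX1 and the elongins ELOB and ELOC, fell in hypoxia, with a median log2-fold change of -0.54, against 29.1% of all genes called lower and a median of 0.028. With upper-quartile scaling 3 of the 4 passed, and without both libraries of replicate 1, 2 did. CUL2 went from 67.7 ± 1.75 to 39.4 ± 1.57 CPM (SD, n = 3), or -0.78 on the log2 scale (SE 0.0743) with a quasi-likelihood adjusted p of 0.000157 (edgeR). RBX1 went from 39.8 ± 2.65 to 26.96 ± 2.59 CPM (SD, n = 3), with a log2-fold change of -0.56 and a quasi-likelihood adjusted p of 0.00209 (edgeR). RBX1 and the elongins also serve other ubiquitin ligases.

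The 28 cofactors and modifiers of HIF moved both ways. Of 27 tested, 7 were higher, 9 were lower and 11 passed in neither direction, with a median log2-fold change of 0.021, so that the share called was near the 59.5% over all genes. WSB1, a ubiquitin ligase subunit that targets VHL among other proteins, rose from 107.3 ± 18.3 to 584.6 ± 86.2 CPM (SD, n = 3), or 2.45 on the log2 scale with a quasi-likelihood adjusted p of 4.03e-05 (edgeR). CITED2, which competes with HIF alpha for p300 and CBP, rose by a log2-fold change of 1.61 with an adjusted p of 0.000673, and its relative CITED4 fell by 1.14 on the log2 scale with an adjusted p of 0.000814 in the same test. HSP90AA1, a chaperone that binds HIF-1 alpha and has near-identical pseudogenes, went from 4283 to 1595 CPM, or -1.43 on the log2 scale, with an adjusted p of 0.000214 in the same test. The coactivator genes EP300 and CREBBP, named after their values were seen, had values of 0.14 (quasi-likelihood adjusted p = 0.186, edgeR) and 0.46 (adjusted p = 0.00137).

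Known HIF targets were grouped by the subunit that textbooks give as their main activator, an assignment that varies between cell types and is not independent evidence of the direction. Of 18 targets shared by HIF-1 and HIF-2, 17 were higher and 1 passed in neither direction in edgeR's quasi-likelihood test, against 30.4% higher over all genes, with a median log2-fold change of 2.20. NDRG1, a stress-responsive gene, went from 23.0 ± 2.49 to 476.4 ± 48.1 CPM (SD, n = 3), and LOX, a collagen cross-linking oxidase, from 1.47 ± 0.556 to 65.2 ± 8.17 CPM. The exception, STC2, named after its value was seen, had a log2-fold change of -0.05 with a quasi-likelihood adjusted p of 0.691 (edgeR).

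Of 15 targets mainly of HIF-1, 12 were higher and 3 passed in neither direction in edgeR's quasi-likelihood test, against 30.4% higher over all genes, with a median log2-fold change of 1.5. CA9, a carbonic anhydrase, went from 0.610 ± 0.380 to 24.7 ± 5.92 CPM, and PFKFB4, a regulator of glycolysis, from 23.7 ± 3.47 to 142.2 ± 24.5 CPM (SD, n = 3). The HIF-1 target list and the HIF1A transcript itself thus had opposite directions in the same libraries.

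Of 9 targets mainly of HIF-2, 8 were tested, of which 4 were higher and 2 lower, against 30.4% and 29.1% of all genes, with a median log2-fold change of 0.27. TGFA, a ligand of the EGF receptor, went from 16.7 ± 2.84 to 77.0 ± 4.31 CPM and CCND1, a G1 cyclin, from 274.4 ± 20.4 to 200.5 ± 35.6 CPM (SD, n = 3). The erythropoietin gene EPO, named after its values were seen, had 3, 1 and 0 counts in normoxia and 47, 40 and 102 counts in hypoxia. The 2 lower calls of this list were 1 without normoxia replicate 1 and 0 without hypoxia replicate 1 or hypoxia replicate 2. The difference between the target lists was not tested.

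**Figure D5:**
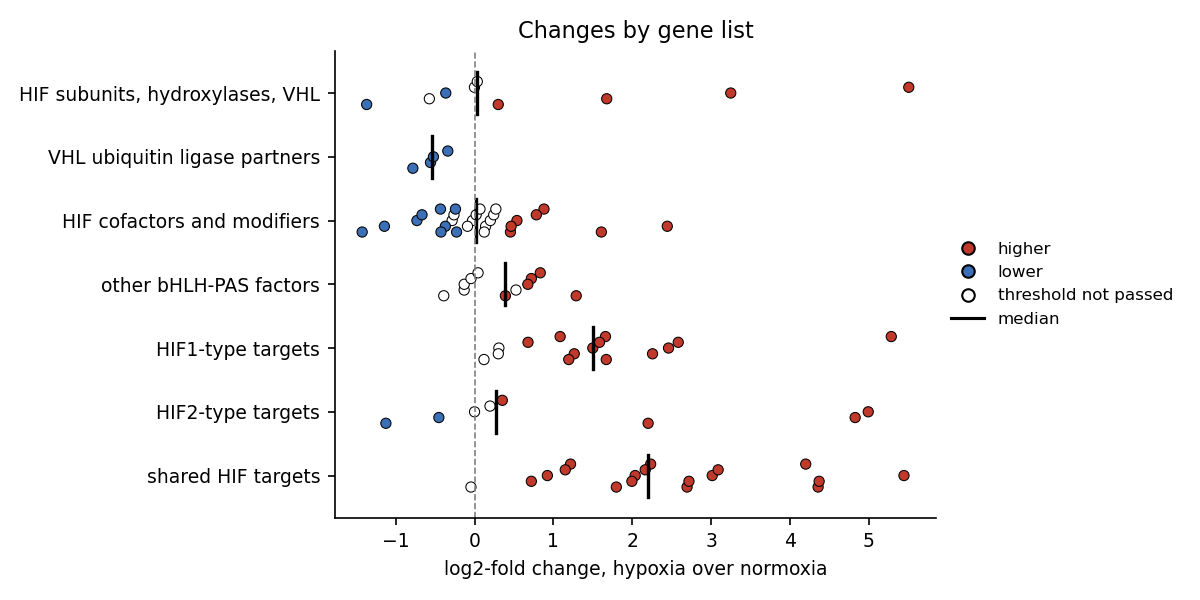
Log2-fold change of each tested gene, hypoxia over normoxia, in the members and 6 related lists, filled where edgeR's quasi-likelihood test passed an adjusted p of 0.05, with the median of each list as a bar. The 4 VHL ligase partners lie below 0 and 17 of the 18 shared HIF targets lie above 0, whereas the members and the cofactors spread to both sides.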

How the data were processed

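The authors deposited raw counts of reads per RefSeq gene, 1 file per library, from stranded mRNA libraries. Per the labels and methods, adapters were removed with Skewer, read quality was checked with FastQC 0.11.5, reads were aligned to hg19 (GRCh37) with STAR 2.5.2a and counted with featureCounts 1.5.1. The strand setting and the handling of reads that overlap several genes are not given in the sources used here.

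Counts were analysed with R 4.3.3 and edgeR 4.0.16. Genes were kept with filterByExpr (minimum count 10, minimum total 15), scaled by TMM and tested with the quasi-likelihood test on all 6 libraries with condition as the only term, Benjamini-Hochberg adjusted over all 15657 genes at 0.05. CPM is a count per 1000000 counts of TMM-scaled library size. CPM per kilobase divides by the counted exon length in the files. Ratios of members were compared with exact two-sided permutation tests. The script was tested on simulated data.

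The methods of the study call the samples paired. Libraries of equal replicate number deviated together from their condition means (r = 0.426, 0.495 and 0.624 over genes for replicates 1 to 3), and the numbers were taken to pair them. Libraries of unlike number were not compared in this way, and both libraries numbered 3 stood apart. The values therefore cannot show that replicates 1 and 2 are paired by number. The main fit and the permutation tests did not use the pairs. A fit with the replicate block, and sign flips of the pairs for the ratios, were alternatives. The other alternatives were edgeR's exact test, which the study names, DESeq2 1.42.0, other scalings, no filter, each library or replicate number left out, hypoxia replicate 3 thinned to the median total of the others, and ratios from counts not divided by length. Members and gene lists were chosen with earlier results of these data known. All members were named, with the 3 genes most like HIF1A, EPAS1 and EGLN3. From each list, the 2 genes with the largest change each way were named among called genes averaging 100 counts or more. A gene that this rule named is not reported here.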

Additional observations from a re-analysis of the deposited data

How the results depend on the processing

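Of the tested members, EGLN1, EGLN3, ARNT2 and HIF1A kept direction and call under every alternative run. With the replicate block, no member changed its call, the EPAS1 log2-fold change turned from -0.00079 to 0.0045, and other bHLH-PAS factors called lower numbered 1 instead of 0. Over all genes, 5733 were called higher and 5511 lower with the block. ARNT had an adjusted p of 0.00113 in that fit (edgeR, quasi-likelihood). Sign flips of the pairs, run on the ratios, cannot give a p under 0.25. With upper-quartile scaling, EPAS1 was 0.16, HIF1AN was -0.21 and no longer passed, 1 member and 1 HIF-2 target were called lower instead of 2 each, and 3 of the 4 VHL partners instead of all. With counts not divided by length, EGLN1 stayed above EGLN3 in hypoxia replicates 1 and 2, and the hypoxia minus normoxia differences were -39.2 percentage points for the EGLN1 share, -1.75 for EGLN2 and 41.0 for EGLN3, and 3.90 for the log2 ratio of EGLN genes to HIF1A. With EGLN2 divided by its unshared bases, an alternative chosen after seeing the data, the differences were -32.4 points for EGLN1 and -24.1 for EGLN2. HIF3A could be tested only with no filter. Causes were not tested.

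With 1 library or 1 replicate number left out, log2-fold changes ranged from -0.10 to 0.12 for EPAS1, 0.24 to 0.34 for ARNT, -0.954 to 0.0499 for EGLN2, -0.43 to -0.29 for HIF1AN and -0.0291 to 0.0974 for VHL. ARNT lost its call in 6 of these 9 sets (adjusted p of 0.0549 to 0.141 in edgeR's quasi-likelihood test). HIF1AN lost its call without replicate 1 or replicate 2 of both conditions (adjusted p of 0.0781 and 0.0516 in edgeR's quasi-likelihood test). Members called lower ranged from 1 to 2, all genes called higher from 2648 to 5751 and lower from 2191 to 5506, with the lowest counts without replicate 1. Genes called lower ranged from 2 to 4 among VHL partners, 5 to 10 among cofactors, 0 to 1 among bHLH-PAS factors and 0 to 2 among HIF-2 targets, and bHLH-PAS factors called higher from 2 to 5. Low counts limit HIF3A, ARNT2 and EGLN2, whose normoxia counts were at most 64. For EGLN2, 86% of the counted bases are also shared with RAB4B-EGLN2.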

Other observations

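Other members of the bHLH-PAS family, some of which can pair with ARNT, were measured in the same libraries. Of 13 listed, 11 could be tested (edgeR, quasi-likelihood), of which 5 were higher in hypoxia and 6 passed in neither direction, with a median log2-fold change of 0.39, against 30.4% higher and 29.1% lower over all genes. SIM2, a developmental regulator, rose from 7.34 ± 1.86 to 18.1 ± 2.53 CPM (SD, n = 3), or 1.29 on the log2 scale with an adjusted p of 0.0012. NPAS2, a paralog of CLOCK, rose from 2.11 ± 0.146 to 3.77 ± 0.484 CPM (SD, n = 3), or 0.83 on the log2 scale with an adjusted p of 0.00489 in the same test. AHR, AHRR and NCOA3, named after their values were seen, had log2-fold changes of 0.72, 0.68 and 0.39, and all passed. For the clock genes CLOCK and ARNTL, also named after their values were seen, the values were -0.13 each, and neither passed. ARNTL2 went the other way, at 0.53, and did not pass.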
